A study of Mus musculus with 28 samples.

Results

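Transcripts of 8 genes that mark adipocytes were followed in the mouse pancreas, namely Adipoq, Fabp4, Cfd, Plin1, Retn, Lipe, Cidec and Lep. They were chosen by name, as adipocyte genes, and all 8 were among the 35928 genes in the table of pancreas and liver. The 8 pancreases came from 6 A3B mice (mice 44, 53, 49, 125, 137 and 153) and 2 control mice (mice 45 and 168). In A3B mice, which derive from KH2 stem cells, a doxycycline-responsive transgene at ColA1 encodes a turboGFP fusion of the human enzyme APOBEC3B and a second, ubiquitously driven transgene, CAGs-rtTA3, supplies its activator, and controls were described as littermates that lacked 1 of the alleles. All mice are labelled as fed 625 ppm doxycycline food for 10 days, which was begun at 4 weeks of age in the study's account. That account calls the 2 controls of the matched editing analysis undosed in 1 place, so the sources differ on whether controls 45 and 168 received the drug. The groups used here are those of the sample titles, because the genotype entry names the A3B allele alone for A3B pancreases 44 and 137 and both alleles for control pancreases 45 and 168, while the livers of the same mice carry the entries that match their titles. The human transgene was not analysed here, so the genotypes were not checked. Livers of 6 A3B and 2 control mice from the same set served as background, 7 of the mice being shared with the pancreas, as did an earlier set of 3 A3B and 3 control livers and 3 A3B and 3 control lungs. In that earlier set food was given for 10 or 14 days to A3B mice and 15 days to controls, 1 control liver has a genotype entry with both alleles, and 1 control lung has one with the activator alone.

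White adipocytes store triglyceride in a single large lipid droplet and secrete hormones that act on appetite and insulin action. Breakdown of the stored fat is controlled at the droplet surface, where coat proteins hold lipases back until a hormonal signal arrives. The pancreas of the mouse is a soft, lobed gland that lies in mesenteric fat, with adipocytes and lymph nodes along its edges, so adipocyte RNA in a whole-pancreas library can come from fat inside the gland or from fat taken with it. These sources cannot be told apart in the libraries, and neither can fewer adipocytes and less RNA per adipocyte.

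The genes lie on 6 chromosomes of mouse build GRCm38, and all are annotated as protein-coding. Adipoq lies at chr16:23146536-23158028 and Lep at chr6:29060220-29073877, both on the plus strand. Lipe lies at chr7:25379527-25398710 on the minus strand, with 8 annotated transcripts in the files. Promoters of 3 genes are shown because Adipoq is the reference for the other genes below, Lep held the rarest sequence motif, and Lipe was the gene that departed from the rest. Each is the run of 250 bases that ends just before a RefSeq start site (GRCm38.p6), 5′ to 3′ on the strand of the gene, with capitals marking every match to a searched motif. The first Lipe window, chr7:25390113-25390362, ends next to the start of Lipe-202, whose annotated span is chr7:25379645-25390106, and the second, chr7:25395988-25396237, lies further upstream, inside the span of Lipe-201.
Adipoq, chr16:23146286-23146535, plus strand: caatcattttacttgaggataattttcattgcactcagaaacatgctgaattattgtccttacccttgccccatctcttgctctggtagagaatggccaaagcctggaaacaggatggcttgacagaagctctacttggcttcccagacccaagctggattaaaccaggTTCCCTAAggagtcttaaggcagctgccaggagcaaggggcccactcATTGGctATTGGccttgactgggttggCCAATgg
Lep, chr6:29059971-29060220, plus strand: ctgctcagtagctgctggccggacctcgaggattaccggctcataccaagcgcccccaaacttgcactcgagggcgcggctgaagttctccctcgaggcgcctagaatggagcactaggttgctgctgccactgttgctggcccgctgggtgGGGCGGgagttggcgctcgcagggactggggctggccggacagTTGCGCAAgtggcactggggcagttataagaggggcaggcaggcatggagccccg
Lipe, chr7:25390113-25390362, minus strand: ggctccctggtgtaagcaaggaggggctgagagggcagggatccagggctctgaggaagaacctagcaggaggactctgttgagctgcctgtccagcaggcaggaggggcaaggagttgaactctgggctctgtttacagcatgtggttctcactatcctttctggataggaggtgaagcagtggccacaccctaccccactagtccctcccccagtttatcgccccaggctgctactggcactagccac
Lipe, chr7:25395988-25396237, minus strand: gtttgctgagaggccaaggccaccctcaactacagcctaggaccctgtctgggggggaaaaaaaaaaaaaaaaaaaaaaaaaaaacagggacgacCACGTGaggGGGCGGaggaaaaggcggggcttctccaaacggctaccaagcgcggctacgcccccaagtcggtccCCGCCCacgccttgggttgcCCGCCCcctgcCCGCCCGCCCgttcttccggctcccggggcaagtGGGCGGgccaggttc

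On both strands, 7 motifs were searched in 9 such windows of 7 of the genes, Fabp4 having no entry. The palindrome TTGCGCAA, a strong binding sequence of the C/EBP factors of adipocyte differentiation, was found in the Lep window alone among the 9, 55 bases before the start, and occurs in 0.164% of the 32851 mouse windows. The looser form TTNNGNAA, which includes the palindrome, was found in 5 of the 9 windows (Adipoq, both Cidec windows, Lep and Plin1) and in 36.8% of all windows. Adipoq held 3 matches to CCAAT, a motif present in 33.8% of all windows. The upstream Lipe window held 6 matches to the GC box GGGCGG, 2 of them overlapping, and 1 match to the E-box CACGTG, motifs found in 32.7% and 6.02% of windows, whereas the window next to Lipe-202 held no match. The sequences TATAAA and AGGTCA, found in 12.4% and 14.0% of all windows, were absent from the 9. These matches describe the letters of the windows and are not evidence of binding.

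In the pancreas, 7 of the 8 genes had their highest TPM in the same 3 libraries, 2 of them A3B and 1 control, and the eighth, Lipe, did not follow them. Libraries held 74836907 to 95604352 estimated counts. None of the 8 genes passed the edgeR test between the groups, against 17.0% of the 19142 tested genes called higher and 14.9% called lower in A3B pancreas. Levels are given in TPM, a share of the library's transcripts that is corrected for transcript length, and tests were made with edgeR's quasi-likelihood test on counts scaled by the trimmed mean of M values (TMM). The scaling matters here, since the median log2 fold change of all tested genes was 0.09 with TMM and 2.29 with library totals alone. Acinar enzyme genes of a list of 13 took 45.0% and 44.2% of the counts in control pancreases 45 and 168. In the A3B pancreases they took 6.35% to 14.7%. This left a smaller share of the control libraries to all other genes together. The TMM factors were 0.210 and 0.443 in controls 45 and 168, despite their similar acinar shares, and 1.30 to 1.79 in A3B. With TMM without the acinar genes the Adipoq estimate was -3.26, as with all genes. What set the factors was not tested. Groups are compared below on the TMM scale unless TPM is named.

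Among the secreted products, Adipoq encodes adiponectin, a hormone made almost only by adipocytes. Adipoq was at 0.673, 36.4, 20.02, 0.861, 0.253 and 1.76 TPM in A3B pancreases 44, 53, 49, 125, 137 and 153, and at 1.94 and 45.4 TPM in controls 45 and 168. A3B 53, A3B 49 and control 168 were therefore at 20.02 TPM or more and the other 5 at 1.94 TPM or less, and each group held libraries of both levels in TPM. These 3 are called rich and the other 5 poor below, by their TPM. In TMM-scaled CPM (counts relative to the TMM-scaled library size) control 45, at 10.2, lay beside A3B 49, at 11.3, with control 168 at 103.9, A3B 53 at 22.2 and the other 4 A3B pancreases at 1.32 or less, so on that scale both controls stood above those 4. The gap between the 2 controls was 23.4-fold in TPM, and that between the highest and lowest A3B pancreas 143.9-fold. On the TMM scale the A3B estimate was lower by a log2 fold change of -3.26, with an SE of 1.69 (edgeR adjusted p = 0.180), and did not pass the threshold.

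Cfd, complement factor D or adipsin, another secreted adipocyte product, was at 2.82, 206.5, 199.5, 13.0, 0.769 and 17.5 TPM in A3B pancreases 44, 53, 49, 125, 137 and 153, and at 9.63 and 258.3 TPM in controls 45 and 168. The same 3 pancreases were the highest, and the ranking of the 8 libraries by Cfd was the ranking by Adipoq on the TMM scale (Spearman's rho 1 over 8 libraries, a description). The estimate for Cfd was -2.80, with an SE of 1.69 (edgeR adjusted p = 0.243). Lep, which encodes leptin, the satiety hormone, was scarce, at 0.0522, 0.253, 0.925, 0.0292, 0 and 0.0648 TPM in the A3B pancreases in the same order, and at 0.00379 and 1.31 TPM in the controls. These levels rested on 0 to 191 estimated counts in A3B and on 1 and 176 in the controls, so Lep resolved only the richest libraries, and its estimate was -2.55, with an SE of 1.57 (edgeR adjusted p = 0.245).

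Retn, which encodes resistin, was the 1 gene of the 8 whose groups did not overlap on the TMM scale. It was at 0.0741, 3.15, 10.3, 0.431, 0.216 and 0.517 TPM in A3B pancreases 44, 53, 49, 125, 137 and 153, and at 1.61 and 15.8 TPM in controls 45 and 168. In TMM-scaled CPM the A3B range was 0.0356 to 3.66, below the 5.37 and 22.9 of the controls, whereas in TPM control 45 lay below A3B 53 and A3B 49. Separation with A3B lower was common, at 18.9% of the tested genes, and with A3B higher at 25.1%. The estimate for Retn was -3.92, with an SE of 1.39 (edgeR adjusted p = 0.0649), and without A3B pancreas 49 it was -5.19 (edgeR adjusted p = 0.0166), so that 1 library decided the call. Without A3B 49, 2977 of 18729 genes were called higher and 2619 lower.

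Of the genes that handle lipid, Fabp4 encodes the cytosolic fatty acid carrier of adipocytes, which endothelial cells and macrophages also make. Fabp4 was the most abundant of the 8 genes in TPM in every pancreas. It was at 143.3, 813.3, 244.6, 174.5, 136.7 and 137.3 TPM in A3B pancreases 44, 53, 49, 125, 137 and 153, and at 39.4 and 323.8 TPM in controls 45 and 168. Its range was narrower than that of Adipoq, since the 4 A3B pancreases that were poor in Adipoq all kept 136.7 TPM or more. In TMM-scaled CPM those 4 were at 70.4 to 87.3 and A3B 49 at 91.95, below the 140.5 of control 45, so the place of control 45 turned with the scale. A single transcript, Fabp4-201, made up 98.3% to 99.8% of the TPM of the gene in all 8. The estimate was -1.34, with an SE of 0.70 (edgeR adjusted p = 0.176), and without A3B pancreas 53, the highest library, it was -2.03 (edgeR adjusted p = 0.00535), which passed the threshold. Without A3B 53, 2900 of 18810 genes were called higher and 2465 lower.

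Plin1 and Cidec encode proteins of the lipid droplet surface, perilipin 1 as the gatekeeper of lipolysis and Cidec as a factor of droplet fusion. Plin1 was at 0.681, 10.9, 5.86, 0.0926, 0.0279 and 0.290 TPM in A3B pancreases 44, 53, 49, 125, 137 and 153, and at 0.287 and 7.63 TPM in controls 45 and 168. Cidec was at 1.13, 69.1, 21.2, 1.13, 0.948 and 1.41 TPM in the same A3B pancreases, and at 1.37 and 18.7 TPM in the controls. Both split the libraries in TPM as Adipoq did, and Cidec was highest in A3B 53, where it exceeded control 168. In TMM-scaled CPM control 45 lay between A3B 49 and the 4 poor A3B pancreases, at 3.34 against 4.56 and at most 0.523 for Plin1, and at 8.49 against 15.7 and at most 1.34 for Cidec. The estimates were -2.23 for Plin1, with an SE of 1.71 (edgeR adjusted p = 0.351), and -1.22 for Cidec, with an SE of 1.76 (edgeR adjusted p = 0.632). In the 3 rich libraries Cidec-202 carried 52.9% to 57.3% of the TPM of Cidec, while in the 5 poor ones its share moved between 0 and 87.5%, at 97 to 155 estimated counts for the gene.

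Lipe encodes hormone-sensitive lipase, an enzyme of fat breakdown in adipocytes that is also made in steroid-producing and pancreatic islet cells. Lipe was at 29.6, 38.1, 36.4, 25.6, 28.7 and 42.8 TPM in A3B pancreases 44, 53, 49, 125, 137 and 153, and at 1.94 and 8.44 TPM in controls 45 and 168. The A3B levels lay within 1.67-fold of each other, with A3B 153, poor in Adipoq, the highest and the other 3 poor A3B pancreases below both rich ones. A3B and control did not overlap in TPM, but on the TMM scale the A3B range of 32.3 to 55.5 CPM overlapped the 19.0 and 32.4 CPM of the controls. The estimate was 0.75, with an SE of 0.28 (edgeR adjusted p = 0.0645). It passed without A3B 125 (0.82, edgeR adjusted p = 0.0487), where 3133 of 18915 genes were called higher and 2689 lower. With 1 control left, the estimate was 1.21 without control 168 and 0.44 without control 45. Lipe-202, the transcript of the first Lipe window above, was the leading transcript in all 8 pancreases, with 37.5% to 57.7% of the TPM, and Lipe-208 had 14.7% to 25.8%.

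**Figure D1:**
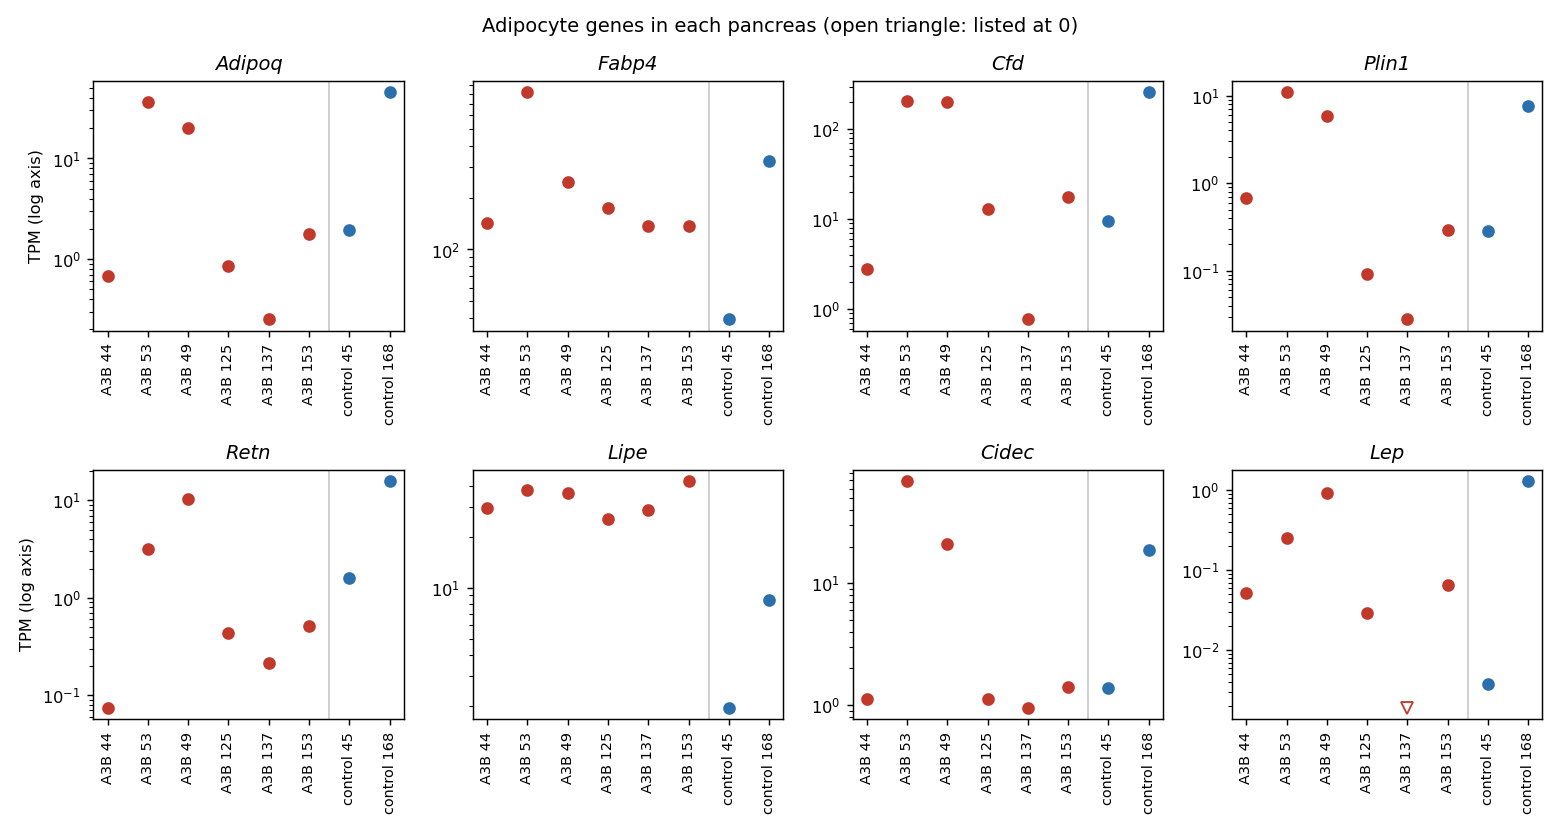
Level of each of the 8 genes (TPM, log axis) in each of the 8 pancreases, with A3B libraries in red, control libraries in blue and an open triangle for a value listed at 0. A3B 53, A3B 49 and control 168 are the highest for 7 of the genes, while Lipe is between 25.6 and 42.8 TPM in all A3B libraries.

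The 2 unadjusted p-values under 0.05 among the 8 genes were those of Retn and Lipe, while 8318 of the 19142 tested genes had one. DESeq2 also called none of the 8, against 3660 higher and 3424 lower of 26201 genes. It gave an unadjusted p under 0.05 for Lipe alone, and no p for Fabp4 and Retn, whose values it set aside as outliers. The median log2 fold change of all tested genes was 0.09 with TMM, 2.29 with library totals alone and 1.75 on log2(TPM + 1). Relative to that median the order of the genes was kept in direction: Adipoq lay at -3.35 with TMM and -3.57 with library totals, Cidec at -1.31 and -1.51, and Lipe at 0.66 and 0.53. Without such a reference, Fabp4 and Cidec changed sign with library totals (0.65 and 0.78), and Lipe was called higher (2.81, SE 0.49, edgeR adjusted p = 0.000506), as it was on log2(TPM + 1) (2.69, SE 0.39, limma adjusted p = 5.71e-05). Most genes were called higher under these scalings, 13483 of 19142 with library totals and 11405 of 13597 on log2(TPM + 1). The controls weighed as much as the scaling. Without control 168 the estimate was -0.76 for Adipoq, -0.14 for Cfd and 0.68 for Cidec, and without control 45 it was -4.10, -3.66 and -1.99, with none of these called.

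**Figure D2:**
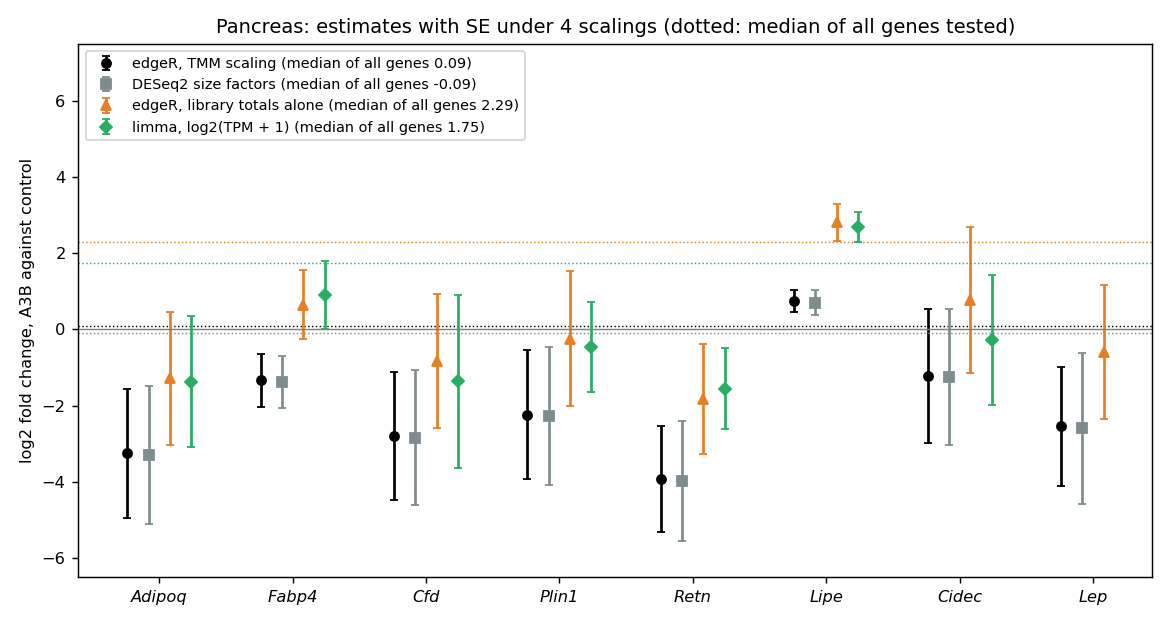
Log2 fold change of A3B against control pancreas with its SE for the 8 genes, from 6 A3B and 2 control libraries under 4 scalings, with dotted lines at the median of all genes tested under each. Lep is missing from limma because its mean was under 1 TPM. The 7 genes other than Lipe lie below the median line of their scaling and Lipe above it.

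Ratios between the genes inside a library do not depend on how libraries are scaled, and they were taken to Adipoq, a denominator chosen after the values had been seen. The Cfd to Adipoq ratio of TPM was between 3.04 and 15.1 in A3B pancreas and 4.97 and 5.69 in the controls, so it overlapped. Cidec to Adipoq was 1.67, 1.90, 1.06, 1.31, 3.75 and 0.799 in A3B pancreases 44, 53, 49, 125, 137 and 153, above the 0.707 and 0.412 of controls 45 and 168. Lipe to Adipoq was 44.0, 1.05, 1.82, 29.7, 113.7 and 24.4 in the same A3B pancreases, against 1.002 and 0.186. Cidec and Lipe were thus the 2 of 7 genes whose ratios were separated with A3B higher, which 23.0% of all tested genes also were. In A3B 153 and control 45 the Cidec ratios were close to each other, as were the Lipe ratios in A3B 53 and control 45. The Fabp4 to Adipoq ratio ran from 12.2 in A3B 49 to 541.0 in A3B 137 and was 20.4 and 7.13 in the controls, and Plin1 and Retn ratios overlapped as well.

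**Figure D3:**
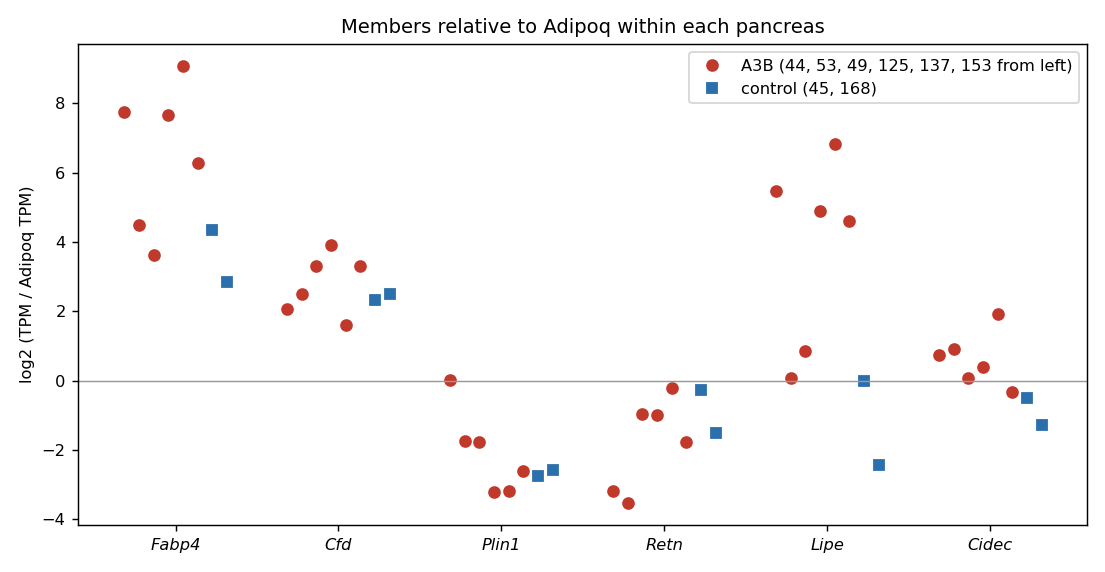
Log2 of the TPM of 6 genes divided by the TPM of Adipoq in the same pancreas, with A3B libraries as red circles and control libraries as blue squares. Lep is left out, being listed at 0 in 1 library. The control squares lie below all A3B circles for Lipe and Cidec and among them for Cfd, Plin1 and Retn.

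Over the 8 pancreases, the 21 pairs among the 7 genes other than Lipe had Pearson's r of log2 CPM between 0.678 and 0.986, with a median of 0.863. The 7 pairs with Lipe had r between -0.539 and 0.013. These are descriptions over 8 libraries that share their scaling factors and are unevenly spread, and no p is given.

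The genes whose levels followed the mean profile of the 8 most closely were mainly not adipocyte genes. Among 14101 other genes with a mean of at least 1 CPM, 30 had r over 0.9, and the 10 highest were Jchain, Igkc, Iglv1, Mzb1, Ighm, Trarg1, C330007P06Rik, Iglc1, Iglc2 and Igkv15-103. Of these, 8 belong to antibody production, as immunoglobulin heavy or light chain segments, the joining chain Jchain, and Mzb1, a chaperone of antibody assembly. Reads of the immunoglobulin segments are shared between near-identical copies, so the levels of single segments are uncertain. Trarg1, which controls the trafficking of the insulin-dependent glucose transporter in adipocytes, was the 1 gene of the 10 that was on a wider adipocyte list.

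Jchain (r 0.989) was at 0.649, 25.9, 7.76, 0.917, 0.256 and 1.54 TPM in A3B pancreases 44, 53, 49, 125, 137 and 153, and at 0.647 and 31.4 TPM in controls 45 and 168. Igkc (r 0.986) was at 15.2, 618.2, 198.8, 10.8, 4.16 and 58.7 TPM in the A3B pancreases, and at 7.42 and 234.5 TPM in the controls. Ighm (r 0.969) was at 14.5, 304.0, 141.2, 11.6, 5.995 and 37.7 TPM, and at 2.996 and 96.4 TPM. The 3 pancreases rich in Adipoq were thus the 3 richest in each of these antibody genes, followed by A3B 153, and A3B 137 was the lowest A3B library for all of them and for Adipoq, Cfd, Plin1 and Cidec. Trarg1 (r 0.969) ranged more narrowly, from 0.754 to 3.28 TPM in A3B pancreas, and was 0.176 and 1.29 TPM in the controls.

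**Figure D4:**
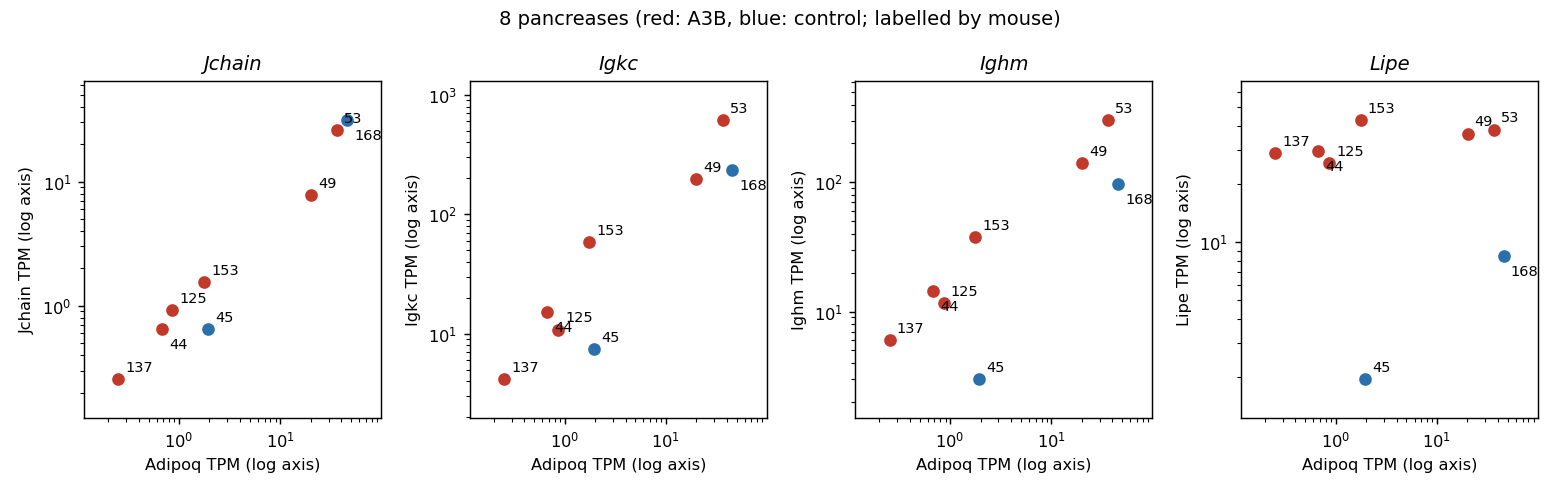
TPM of Jchain, Igkc, Ighm and Lipe against the TPM of Adipoq in the 8 pancreases (both axes log), labelled by mouse number, with A3B in red and control in blue. The antibody genes climb with Adipoq from A3B 137 to A3B 53 and control 168, while Lipe is level across the A3B libraries.

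A list of 10 lymph node and lymphocyte markers had none that passed the test in either direction. Its summed level was between 25.0 and 435.7 TPM in A3B pancreas, highest in A3B 49, and 4.83 and 121.6 TPM in controls 45 and 168, and the groups overlapped in CPM as well, at 13.8 to 182.0 against 18.3 and 310.8. One of the 10 markers in A3B 44 and 2 in A3B 137 had estimated counts that rounded to 0. Ms4a1, the B cell antigen CD20, was the list's closest to the profile of the 8 genes (r 0.929, rank 17 of 14101). Among the fat lists, Prkar2b, a regulatory subunit of protein kinase A (r 0.934), Apol6 (0.929), Car3, a carbonic anhydrase abundant in adipocytes (0.916), and Adig, adipogenin (0.915), ranked 13, 16, 22 and 23. The part of lymphoid tissue in the differences between libraries was not tested.

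Beside the 8, 9 wider lists of 67 genes of adipocyte function were examined, and 65 genes could be tested in the pancreas. Of these, 10 were higher, 10 lower and 45 not called in A3B pancreas, with a median log2 fold change of -0.19 against 0.09 over all genes. The share called, 10 of 65 in each direction, lies near the 17.0% and 14.9% of all genes given above.

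The list of other lipid droplet proteins was the 1 with most called higher, 4 of 6, and a median of 2.22. Plin2, the droplet coat protein of most cell types, was between 178.3 and 562.9 TPM in A3B pancreas and at 1.55 and 9.87 TPM in controls 45 and 168. The groups did not overlap, and A3B was higher by 3.70 on the log2 TMM scale, with an SE of 0.61 (edgeR adjusted p = 0.00164). Plin2 was highest in A3B 53, which was rich in Adipoq, followed by A3B 44 (408.8 TPM), which was poor in it, and A3B 49 (329.8 TPM), while the other 3 poor A3B pancreases were at 178.3 to 251.9 TPM. Plin5, a coat protein of oxidative tissues (2.44, SE 0.47, edgeR adjusted p = 0.00359), and Cidea, a relative of Cidec (2.19, SE 0.65, edgeR adjusted p = 0.0264), also rose, as did Cideb (2.26, SE 0.70, edgeR adjusted p = 0.0315). Plin3 and Plin4, at 0.52 and 0.74, did not pass.

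Of 8 genes of lipolysis and glycerol release, 1 was higher and 2 lower. Pnpla2, adipose triglyceride lipase, which takes the first fatty acid off a stored triglyceride, rose by 1.64, with an SE of 0.46 (edgeR adjusted p = 0.0206), and was at 74.8 to 220.1 TPM in A3B against 4.88 and 16.4 TPM in the controls. Its highest level was in A3B 125, a pancreas poor in Adipoq. G0s2, an inhibitor of Pnpla2, fell by 1.54 on the log2 TMM scale (SE 0.36, edgeR adjusted p = 0.00966), while its mean TPM was not lower, at 8.79 in A3B and 6.30 in control. Adrb3, the adrenergic receptor of adipocytes, fell by 3.14 (SE 0.74, edgeR adjusted p = 0.0101), with mean TPM of 1.52 and 2.20.

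Of 6 transcription factors of adipocyte differentiation 2 were higher and none lower. Cebpb and Cebpa rose by 2.22 (SE 0.38, edgeR adjusted p = 0.00196) and 1.02 (SE 0.19, edgeR adjusted p = 0.00316), while Pparg, the central regulator of adipocytes, was at 0.18 with an SE of 0.40 (edgeR adjusted p = 0.753). C/EBP factors are also made by hepatocytes and macrophages. In lipid synthesis, 2 of 7 lipogenic genes were called, Thrsp lower (-2.16, SE 0.36, edgeR adjusted p = 0.00187) and Me1 higher (1.79, SE 0.35, edgeR adjusted p = 0.00350), and 2 of 7 genes of triglyceride assembly, Dgat1 lower (-1.16, SE 0.24, edgeR adjusted p = 0.00498) and Lpin1 higher (1.81, SE 0.47, edgeR adjusted p = 0.0154). In mean TPM Dgat1 was higher in A3B (16.8 against 9.76), so its direction depends on the scaling. None of 7 genes of fatty acid and glucose uptake passed, and of 5 adipokine receptor genes Cap1, a resistin receptor with a general role at the cytoskeleton, was the 1 called, higher by 1.51.

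Among 13 other adipocyte-enriched genes 4 were lower and none higher, with a median of -1.54. Acvr1c, an activin receptor of adipocytes, fell by 2.51 (SE 0.32, edgeR adjusted p = 0.000450) on the TMM scale, though its mean TPM was 0.662 in A3B and 0.426 in control. Tmem45b, a membrane protein, fell by 4.95 (SE 0.83, edgeR adjusted p = 0.00277), from 14.6 TPM in control 168 and 0.468 TPM in control 45 to 0.4604 to 1.51 TPM in A3B, so control 45 lay within the A3B range in TPM, while in TMM-scaled CPM both controls, at 44.4 and 1.93, lay above the A3B range of 0.3597 to 1.499. Of 6 tested genes of brown fat 2 were lower and none higher. Cox8b, a cytochrome oxidase subunit of brown fat and muscle, was at 2.02 and 8.26 TPM in controls and at 0 to 1.40 TPM in A3B, and Ucp1, the defining gene of brown fat, was too low to test, with mean TPM of 0.0377 and 0.103.

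Markers of other cells that can be in a pancreas library were compared as well, against the 17.0% of all genes called higher and 14.9% called lower, and their sums are given in TPM and in TMM-scaled CPM, since the order of the libraries depends on the scale. Macrophage markers were higher in A3B for 5 of 8 genes, led by Cd68 (4.02, SE 0.42, edgeR adjusted p = 0.000210), and the list summed to 1172 to 3539 TPM in A3B against 37.9 and 520.0 TPM in controls 45 and 168. In CPM the macrophage sums overlapped, at 1078 to 2797 in A3B against 233.3 and 1288. Preadipocyte and fat stroma markers were higher for 4 of 8, led by Ly6a (2.68, SE 0.40, edgeR adjusted p = 0.00103), and summed to 853.7 to 1565 TPM in A3B against 42.2 and 171.1 TPM, and to 689.9 to 1086 CPM against 306.8 and 548.4 CPM. Endothelial markers were higher for 1 of 8, Cdh5, a share below that of all genes, with sums of 78.3 to 126.1 TPM against 12.3 and 29.9 TPM, and overlapped at 172.7 to 282.1 CPM against 170.7 and 177.4 CPM. Skeletal muscle markers were lower for 4 of 5, and their sum was 38.9 TPM in control 168 and 2.65 TPM in control 45, against 5.19 to 7.51 TPM in A3B. In CPM both controls lay above A3B, at 71.8 and 10.02 against 1.91 to 2.98, so the place of control 45 turned with the scale. Red blood cell markers were lower for 5 of 5, with a median of -5.10 and sums of 13.5 to 278.4 CPM in A3B against 4617 and 2720 CPM in controls 45 and 168. In TPM these sums were 41.9 to 914.4 against 2112 and 2773. Smooth muscle markers were lower for 1 of 5, with sums of 41.0 to 153.2 CPM in A3B, 80.1 CPM in control 45 and 329.6 CPM in control 168. In TPM control 45, at 10.4, lay below the A3B range of 36.55 to 157.5, and control 168, at 92.3, lay within it. Endocrine (islet) markers were lower for 2 of 7, Iapp, the islet amyloid peptide (-1.91, SE 0.35, edgeR adjusted p = 0.00265), and Ins1, an insulin gene (-1.79, SE 0.50, edgeR adjusted p = 0.0210). Their sum was 1053 to 3786 CPM in A3B against 7027 and 3053 CPM in controls 45 and 168, but in TPM it was higher in A3B, at 3758 to 13290 against 3434 and 3509. Further lists are given by their calls alone. Ductal markers were higher for 2 of 6, and mesothelial markers higher for 1 of 6 and lower for 1. Hepatocyte markers and alveolar and airway markers had none called. The part of all these cells in the levels of Fabp4, Plin2, Lipe and Cox8b was not tested.

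In liver the 8 genes were scarce, apart from Cidec, Fabp4 and Lipe. In the livers of the same set, Lep was listed at 0 in all 8 and Adipoq was between 0 and 1.51 TPM. None of the 6 genes with enough counts passed, against 1.25% of 17376 genes called higher and 2.41% lower. Of the 17376, 3987 had an unadjusted p under 0.05, and of the 6 genes 1 had. That gene was Cidec, which hepatocytes make when they store fat, at 85.5, 50.7, 175.9, 28.0, 19.4 and 17.7 TPM in A3B livers 44, 137, 49, 125, 48 and 153, and at 4.57 and 5.49 TPM in control livers 45 and 168. The groups did not overlap, as for 15.1% of tested genes with A3B higher, and the estimate was 3.74, with an SE of 1.09 (edgeR adjusted p = 0.0868). DESeq2 called it (3.66, adjusted p = 0.000683), and so did edgeR without A3B liver 49 (2.87, adjusted p = 0.0268), where 1290 higher and 1061 lower of 24484 genes and 653 and 943 of 17090 were called, against 218 and 418 of 17376. Lipe was not called in liver (0.04, SE 0.38, edgeR adjusted p = 0.965), with 6.82 to 29.1 TPM in A3B and 10.2 and 7.80 TPM in control.

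A3B liver 49 was the highest A3B liver in Adipoq (1.51 TPM), Cfd (9.19 TPM), Plin1 (0.986 TPM), Retn (0.703 TPM), Fabp4 (77.3 TPM) and Cidec (175.9 TPM). It came from a mouse with a rich pancreas, but the liver of control 168, whose pancreas was richest in Adipoq, was below that of control 45 in Adipoq (0.0327 against 0.208 TPM), Cfd, Plin1, Retn and Fabp4. The Adipoq level of A3B liver 49 was still below that of its own pancreas, 20.02 TPM.

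An interaction term over the 16 libraries asked whether A3B and control differed by more in 1 organ than in the other, and no gene of the 8 was called, against 6.87% of 19927 genes with a positive and 5.02% with a negative difference. The unadjusted p was under 0.05 for Fabp4 alone of the 8 in this fit, and for 5746 of the 19927 genes. The difference was -4.77 for Cidec, with an SE of 2.31 (edgeR adjusted p = 0.186), -2.63 for Fabp4, with an SE of 1.12 (edgeR adjusted p = 0.137), and 0.88 for Lipe, with an SE of 0.49 (edgeR adjusted p = 0.244). Lep was left out of this description, since no liver had a count. In the paired fit with the mouse as a replicate block, over the 14 libraries of the 7 mice with both tissues, Cidec was called (-6.88, SE 1.02, edgeR adjusted p = 0.0136). Of all 19629 genes in that fit, 1070 were called with a positive and 492 with a negative difference. Without the block on the same 14 libraries, Cidec (-6.75, edgeR adjusted p = 0.0473) and Fabp4 (-3.51, edgeR adjusted p = 0.0202) were called, so the choice of libraries moved the call as well. DESeq2 over all 16 also called Cidec (-4.81, adjusted p = 0.0484).

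In the earlier set of livers, Cidec was at 298.2, 526.3 and 111.3 TPM in A3B livers 23, 28 and 70, and at 10.1, 8.58 and 11.5 TPM in control livers 11, 91 and 92. It was the 1 of 2 tested genes that passed, higher by 4.56 on the log2(TPM + 1) scale, with an SE of 0.55 (limma adjusted p = 0.0130), where 6.07% of 11507 genes were called higher and 1.86% lower. Left-out libraries changed this call, since the adjusted p by limma was 0.0760 without control 91, 0.0749 without control 92 and 0.0560 without A3B 23, at estimates of 4.46 to 4.66. Calls over all genes fell in the same fits, from 699 higher and 214 lower to 1 and 0, 7 and 2, and 43 and 12. Fabp4 was at 39.5, 215.1 and 30.6 TPM in A3B and 15.1, 19.3 and 14.7 TPM in control, a difference of 1.92 with an SE of 0.69 (limma adjusted p = 0.109). Both genes were separated between the groups with A3B higher, as were 28.5% of tested genes. Adipoq did not exceed 0.0416 TPM in these 6 livers.

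In lung none of 6 tested genes passed, where 16.1% of 13651 genes were called higher and 20.8% lower by limma. None of the 6 had an unadjusted p under 0.05, against 6659 of the 13651. Cidec was at 111.6, 414.4 and 104.7 TPM in A3B lungs 69, 70 and 74, and at 96.2, 44.1 and 41.8 TPM in control lungs 87, 88 and 91, separated with A3B higher as 23.3% of genes were (1.57, SE 0.65, limma adjusted p = 0.111). Lung 70 was the highest of the 6 for all 6 tested genes, with 6.96 TPM of Adipoq against 0.461 to 1.64 TPM elsewhere and 47.2 TPM of Plin1 against 2.53 to 6.91 TPM. Mouse 70 also gave one of the A3B livers of the earlier set. Without lung 70 the Cidec estimate was 0.93 in place of 1.57 (limma adjusted p = 0.132). Cfd and Lipe were listed at 0 in all 12 libraries of the earlier set, which may be a failed estimate, and give no level there.

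**Figure D5:**
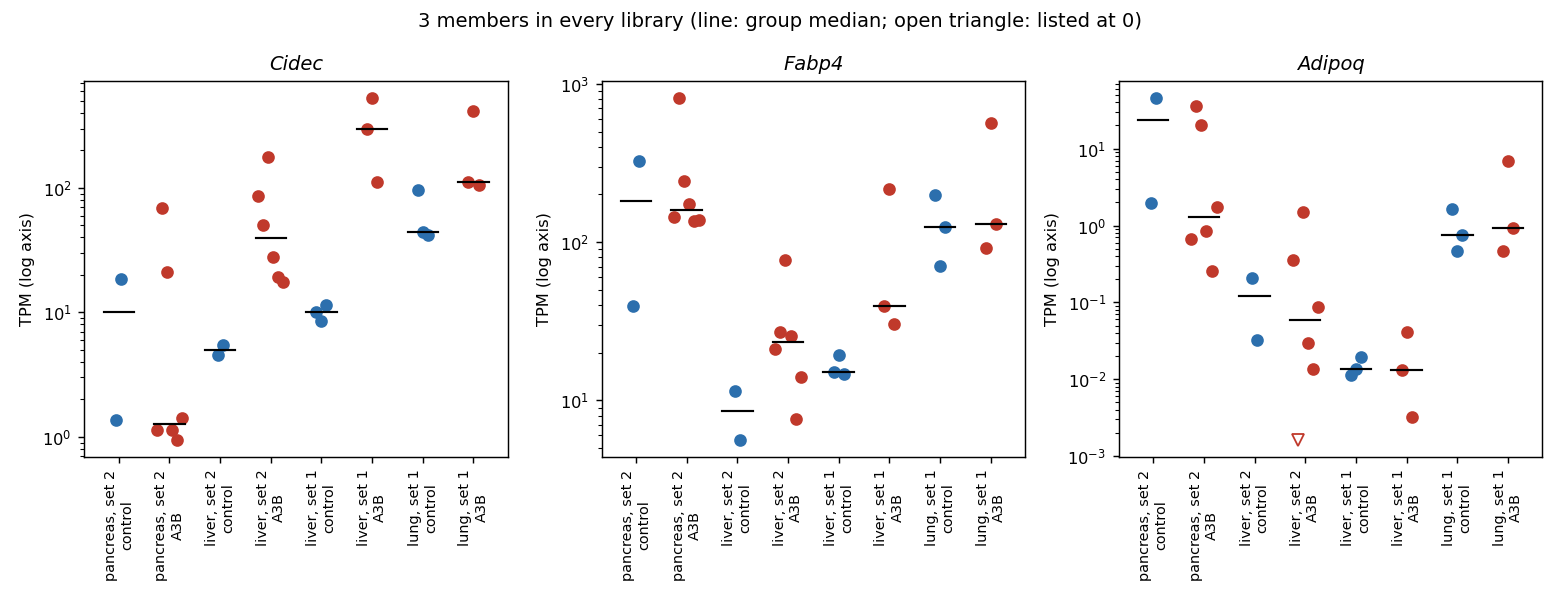
TPM (log axis) of Cidec, Fabp4 and Adipoq in every library of the 8 groups, with controls in blue, A3B in red, a line at each group's median and an open triangle for a value listed at 0. Cidec is separated between A3B and control in both liver sets, and in pancreas the A3B and control points are intermixed for Cidec and Adipoq. TPM were computed separately in sets 1 and 2, so levels are not compared across them.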

How the data were processed

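For set 2 (16 pancreas and liver libraries) the authors deposited kallisto's estimated counts and TPM per transcript for GRCm38 (mm10); for set 1 (12 liver and lung samples) they deposited a gene table of TPM derived from read counts. Of 119414 transcripts, 116728 were matched to 35928 gene symbols (GENCODE M21) and estimated counts and TPM were summed per gene. Unmatched transcripts held 0.225% to 1.46% of a library. Summed counts were rounded, filtered with filterByExpr, scaled by TMM and tested with edgeR 4.0.16 (robust quasi-likelihood). Set 1 was tested with limma 3.58.1 on log2(TPM + 1) where the tissue mean reached 1 TPM. P-values were adjusted by Benjamini-Hochberg over all genes tested (threshold 0.05), and SE were taken from the fold change and F. DESeq2 1.42.0 was an alternative. The scripts were tested on simulated data. Samples of 1 group are separate mice, in set 1 mice 70 and 91 gave both a liver and a lung, and the set 1 depth is unknown. Liver and pancreas of set 2 share mice by number; deviations of the 2 tissues correlated between -0.008 and 0.331 over the 7 mice.

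The 8 genes and all lists were chosen with earlier results of these data known. Named list genes were up to 3 per list, by lowest p, other called members of short lists being added after their values were seen, and the 10 genes most like the mean profile of the 8. Rows with repeated names (4) were left out of set 1.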

Additional observations from a re-analysis of the deposited data

Results flagged for a closer look

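Within groups of 6 A3B libraries, 1 library stood apart from the other 5 for several of the 8 genes by Dixon's test at the 95% level, on TMM-scaled CPM. For normally distributed values chance gives such a gap in about 1 of 20 groups. The CPM were not log-transformed and ran up to 301.1-fold in A3B pancreas (Plin1), so that rate need not hold here. Of 15 groups of values looked at, 10 showed such a gap, but the genes move together and are not independent. In pancreas, A3B 53 stood apart for Fabp4 at 364.4 CPM and for Cidec at 61.03 CPM, and A3B 49 stood apart for Retn at 3.656 CPM and for Lep at 1.436 CPM. In liver, A3B 49 stood apart for Adipoq at 0.9343 CPM, Fabp4 at 42.24 CPM, Cfd at 4.708 CPM, Plin1 at 1.128 CPM, Retn at 0.3457 CPM and Cidec at 140.4 CPM. All 6 liver values came from the mouse whose pancreas held 20.02 TPM of Adipoq, whereas mouse 168, with 45.4 TPM in its pancreas, had 0.0327 TPM in its liver. Whether fat was taken along with either organ was not tested.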

How the results depend on the processing

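In pancreas 0 of the 8 genes were called with TMM, DESeq2, TMM without the acinar genes or no filter. The count was 1 (Lipe) with library totals alone and 1 (Lipe) with limma on log2(TPM + 1) or log2(TPM + 0.1), and 0 to 1 when each library was left out, with Fabp4 called without A3B 53, Retn without A3B 49, and Lipe without A3B 125 or control 168. Of the 65 wider genes tested 20 were called, but 44 with library totals alone (42 higher, where 13483 of all 19142 genes were higher) and 39 of 57 with limma on either TPM scale (38 higher, where 11405 and 11552 of all 13597 were), and 14 to 22 with a library left out. Grouping the pancreases by the genotype entry gave 0 calls and 0 wider calls, and 0 over all 19142 genes, and estimates of 6.73 for Adipoq, 1.56 for Fabp4, 6.79 for Cfd, 4.66 for Plin1, 6.32 for Retn, -0.22 for Lipe, 4.64 for Cidec and 4.52 for Lep, all reversed. Fabp4 also reversed with library totals alone (0.65) and on both TPM scales (0.90 and 0.91), Cidec with library totals alone (0.78) and without control 168 (0.68, from -2.98 over the left-out libraries), and Lep without control 168 (2.73, from -3.81). The remaining estimates kept their sign.

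In liver the count was 1 with DESeq2 and 0 to 1 with a library left out. For the difference between the tissues, the mouse as a replicate block gave 1 call, no replicate block on the same 14 libraries gave 2, library totals alone 1, DESeq2 1, and left-out libraries 0 to 1. Over all genes the difference was called positive and negative for 1070 and 492 of 19629 with the block, 1349 and 949 without it, 7848 and 223 of 19927 with library totals and 1813 and 1934 of 27142 with DESeq2. In the livers of set 1 the call of Cidec was lost without a filter on low values (0 calls), when 19179 genes were tested, and the count was 0 to 1 with a library left out. In lung it stayed 0, though the estimate for Cidec moved from 1.57 to 0.93 without A3B 70. A single control left in a fit is assumed to vary like the A3B libraries. The causes of these changes were not tested. The 2 control pancreases limit all pancreas estimates, and at 0 to 191 counts Lep had little depth.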
